A study of Mus musculus with 12 samples.

Results

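Messenger RNA levels were followed for 10 receptors that sense extracellular nucleotides, adenosine or cannabinoids: the ATP-gated channels P2rx4 and P2rx7, the nucleotide receptors P2ry2, P2ry6, P2ry12, P2ry13 and P2ry14, the adenosine receptors Adora2a and Adora2b, and the cannabinoid receptor Cnr2. They were picked by symbol and found in both deposited count tables, where they were 10 of 24445 genes, each represented by its RefSeq transcript with the highest total count. The cells were bone marrow-derived macrophages, grown from femur and tibia marrow of C57BL/6 mice in medium conditioned by L929 cells, which supplies the growth factor M-CSF, for 7 to 8 days. There were 4 groups of 3 biological replicates: DOT1L knockout (KO) macrophages treated with LPS, DOT1L wild-type (WT) macrophages treated with LPS, untreated KO macrophages and untreated WT macrophages. LPS, the bacterial cell wall component sensed by TLR4, came from Escherichia coli O111:B4 and was given at 10 ng/mL for 3 hours. DOT1L is a histone H3 lysine methyltransferase found on transcribed genes, and the labels describe the mice as myeloid KO or WT with Lyz2 beside the strain, the gene whose promoter drives Cre recombinase in the common myeloid deleter line. Whether the WT mice carried the same allele, the age of the mice and the number of animals behind a replicate were not given in the sources used here.

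P2X receptors are cation channels opened by ATP, and P2Y receptors are G protein-coupled receptors for ATP, ADP, UTP, UDP or UDP-sugars. ATP released by stressed or dying cells is degraded outside the cell to adenosine, whose receptors Adora2a and Adora2b raise cyclic AMP and are known in macrophages for dampening inflammatory cytokine output, while P2rx7 is known for triggering the potassium efflux that activates the NLRP3 inflammasome. Cnr2 is the cannabinoid receptor of immune cells, which lowers cyclic AMP when bound by endocannabinoid lipids.

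In GRCm38.p6, the assembly also called mm10, the genes of 3 of the P2Y receptors lie side by side on the minus strand of chromosome 3: P2ry14 at 59114623 to 59153492, P2ry13 at 59207892 to 59210882 and P2ry12 at 59216271 to 59262985. All of them lie within the span of Med12l, which runs on the other strand and shares 9 exon bases with P2ry12 and none with the others. Med12l had 401 reads over all 12 libraries, and the strand setting of the counting was not given in the sources used here. P2ry2 (100996568 to 101012053) and P2ry6 (100937630 to 100975498) are neighbours on the minus strand of chromosome 7, and P2rx7 (122643927 to 122692336) and P2rx4 (122707518 to 122729739) are neighbours on the plus strand of chromosome 5. Adora2a lies on chromosome 10 (75316877 to 75334792), Adora2b on chromosome 11 (62248984 to 62266452) and Cnr2 on chromosome 4 (135895189 to 135920219), each on the plus strand.

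The 250 bases upstream of an annotated start are given for the 3 P2Y receptors that rose after LPS and for Cnr2, the receptor with the steepest fall, to show what lies in front of genes that moved in opposite directions. They come from RefSeq (GRCm38.p6), run 5′ to 3′ on the strand of the gene and hold no annotated exon base. The RefSeq table held windows for 8 of the 10 receptors, all except Adora2a and P2ry6. Capitals mark the motifs found.
P2ry2 (chr7:101012054-101012303, minus strand): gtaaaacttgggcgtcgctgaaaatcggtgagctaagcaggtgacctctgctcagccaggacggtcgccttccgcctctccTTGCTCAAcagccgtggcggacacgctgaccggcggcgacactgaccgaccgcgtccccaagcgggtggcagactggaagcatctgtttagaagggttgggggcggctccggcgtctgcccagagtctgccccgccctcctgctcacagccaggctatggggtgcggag
P2ry13 (chr3:59210883-59211132, minus strand): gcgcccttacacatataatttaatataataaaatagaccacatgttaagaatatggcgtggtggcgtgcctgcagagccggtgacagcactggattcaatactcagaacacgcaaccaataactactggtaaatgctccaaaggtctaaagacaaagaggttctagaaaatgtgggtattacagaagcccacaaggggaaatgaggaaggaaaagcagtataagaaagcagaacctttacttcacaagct
P2ry14 (chr3:59131329-59131578, minus strand): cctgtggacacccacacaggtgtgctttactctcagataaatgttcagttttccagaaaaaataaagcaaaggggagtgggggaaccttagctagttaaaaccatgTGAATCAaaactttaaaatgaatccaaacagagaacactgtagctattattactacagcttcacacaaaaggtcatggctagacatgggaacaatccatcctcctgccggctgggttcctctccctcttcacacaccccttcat
Cnr2 (chr4:135894939-135895188, plus strand): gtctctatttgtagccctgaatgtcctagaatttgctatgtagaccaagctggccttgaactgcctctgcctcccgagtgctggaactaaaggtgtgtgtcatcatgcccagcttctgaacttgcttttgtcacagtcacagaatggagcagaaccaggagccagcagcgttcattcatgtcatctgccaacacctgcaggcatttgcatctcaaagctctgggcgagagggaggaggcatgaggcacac
The P2ry2 window holds a C/EBP motif (TTGCNNAA) 169 to 162 bases before the start, and the P2ry14 window holds an AP-1 motif (TGANTCA) 144 to 138 bases before it. The P2ry13 and Cnr2 windows shown hold none of the motifs searched on both strands, which also took in the NF-kB motif, the interferon element (GAAA, any 2 bases, GAAA) and the cyclic AMP element TGACGTCA. Over 32851 windows of the same length, 9.56% held the C/EBP motif, 6.75% the AP-1 motif, 3.9% the NF-kB motif, 2.98% the interferon element and 1.55% the cyclic AMP element. Other annotated starts gave other matches. A second exon-free Cnr2 window, before the start at position 135911680, holds a C/EBP motif 77 to 70 bases before it, and of the other 3 P2ry14 windows, which overlap exons, 1 holds an AP-1 motif and 1 holds 2 C/EBP motifs. The NF-kB motif was in none of the 14 windows of the 8 receptors. The P2ry14, Cnr2 and P2ry2 windows shown end at other annotated starts, 704, 205 and 55 bases upstream of the start of the counted transcript. The P2ry2 window at the counted start holds 39 exon bases and a C/EBP motif 224 to 217 bases before that start. These matches are letters in a window and no evidence of binding.

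Libraries held 8642581 to 13542953 counts over the transcripts that stood for the 24445 genes, chosen from 35745 transcripts counted. The first principal component of the libraries carried 85.6% of the variance and separated LPS-treated from untreated cells. On the second, with 4.44%, WT replicate 1 stood apart in both conditions, at -35.6 with LPS and -36.1 without, against -3.55 to 12.9 in the other libraries. Among the receptors, WT replicate 1 had the highest WT value of P2rx4, P2rx7, P2ry6, P2ry12, P2ry13 and P2ry14 in both conditions and the lowest of Adora2a and Adora2b. Receptor results are given without it where that changed a call, and the WT responses to LPS are given once without it. Replicate 2 of every group was male by Xist (at most 0.646 CPM) and Ddx3y (at least 94.2), and the other libraries were female. Levels in CPM are read counts scaled to a fixed library size, with TMM factors common to the 12 libraries. Dot1l averaged 69.6 ± 4.06 CPM in LPS-treated KO and 65.7 ± 4.51 in LPS-treated WT libraries, and 89.9 ± 6.78 in untreated KO against 101 ± 16.4 in untreated WT libraries (SD, n = 3 each); reads were counted over the whole transcript, so this does not check the deletion. Lyz2, which encodes lysozyme and names the deleter line, averaged 3133 ± 263 CPM in LPS-treated KO and 7000.2 ± 850.4 CPM in LPS-treated WT libraries (log2 difference -1.17, adjusted p = 0.00143 by edgeR). All 8 macrophage markers were above 1 CPM in every group, with a summed level of 7412 to 8293 in LPS-treated KO, 6999 to 8659 in LPS-treated WT, 5345 to 5808 in untreated KO and 5042 to 6311 in untreated WT libraries.

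Per transcript length, P2rx4 was the most abundant of these receptors in every group and Adora2a or Cnr2 the least, depending on the treatment. Levels between genes are given in RPKM (reads per kilobase of transcript, scaled to library size), as deposited by the authors in separate tables for LPS-treated and untreated libraries. RPKM followed the library totals and carried no TMM factors. The RPKM levels of a gene with and without LPS are therefore not on the common CPM scale. P2rx4, an ATP-gated channel found largely on lysosomes, stood at 75.7 ± 3.63 RPKM in LPS-treated KO and 71.9 ± 6.15 RPKM in LPS-treated WT cells, and at 94.3 ± 4.11 RPKM in untreated KO against 86.1 ± 12.5 RPKM in untreated WT cells (SD, n = 3 each). Its share of the summed RPKM of the 10 receptors was close in the 4 groups, at 40.1% and 41.2% in LPS-treated KO and WT cells and 40.7% and 40.6% in untreated KO and WT cells.

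Behind P2rx4 the order differed between the conditions. In untreated cells P2ry6, the UDP receptor, came second with 71.2 RPKM in KO and 67.1 RPKM in WT cells, followed by P2rx7, P2ry14, Cnr2, P2ry2, P2ry13, P2ry12, Adora2b and Adora2a in both genotypes. In LPS-treated cells P2ry14, the UDP-sugar receptor, came second with 32.3 RPKM in KO and 30.1 RPKM in WT cells, followed by P2ry6, Adora2a, P2ry2, P2ry13, P2rx7, P2ry12, Adora2b and Cnr2, again in both genotypes. Neighbours in this order whose libraries overlapped were P2ry14 and P2ry6, and P2ry2 and P2ry13, in both LPS-treated genotypes, P2ry13 and P2rx7 in LPS-treated WT, and P2ry2 and P2ry13 in untreated KO. In untreated WT cells the libraries of P2rx7 and P2ry14, P2ry14 and Cnr2, Cnr2 and P2ry2, and P2ry13 and P2ry12 overlapped. All other neighbours were separated in every library.

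The adenosine receptors together took 10.2% of the summed RPKM in LPS-treated KO and 7.95% in LPS-treated WT cells, against 0.637% in untreated KO and 0.735% in untreated WT cells. Cnr2 took 0.0755% in LPS-treated KO and 0.0762% in LPS-treated WT cells, against 5.24% in untreated KO and 4.87% in untreated WT cells. P2rx7 took 4.15% and 4.54% in LPS-treated KO and WT cells, against 9.59% and 9.35% in untreated KO and WT cells. The P2Y receptors as a class held a similar share in all groups, 45.5% and 46.2% in LPS-treated KO and WT cells and 43.8% and 44.4% in untreated KO and WT cells, while its makeup moved away from P2ry6 and towards P2ry14.

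**Figure D1:**
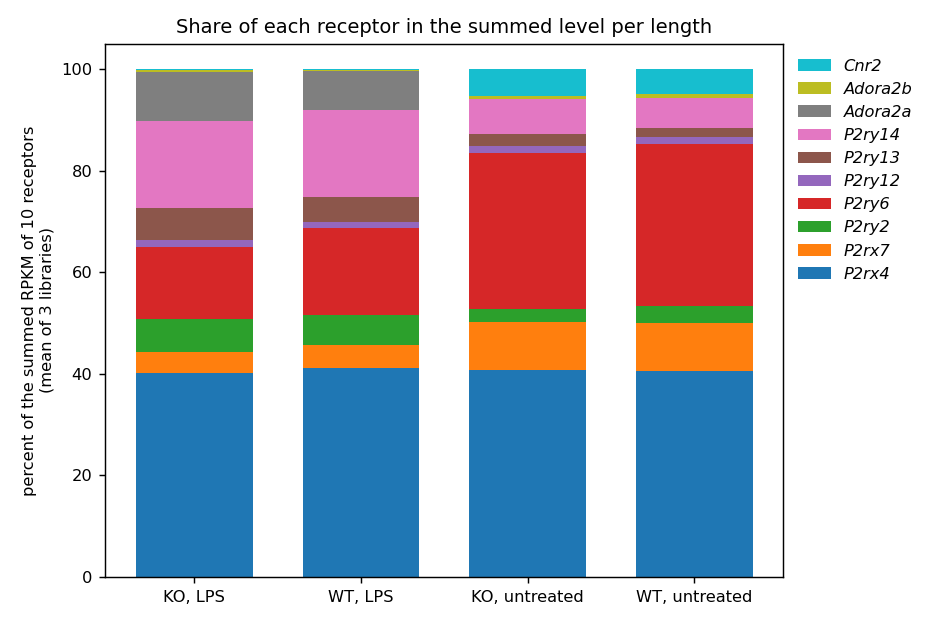
Stacked bars give the share of each receptor in the summed RPKM of the 10 receptors, in percent, as the mean of 3 libraries in LPS-treated KO, LPS-treated WT, untreated KO and untreated WT macrophages. P2rx4 fills 40.1% to 41.2% of every bar, the band of P2ry14 is wider and those of P2ry6 and P2rx7 narrower with LPS, and the Cnr2 band of the untreated bars has its counterpart in an Adora2a band of the LPS-treated bars.

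LPS moved most of these receptors, and the largest changes ran in opposite directions: Adora2a was close to undetected without LPS and had the steepest rise of the receptors, while Cnr2 was well expressed without LPS and close to undetected with it. P2ry2, P2ry13 and P2ry14 rose and P2rx7 and P2ry6 fell in both genotypes. Responses were tested with edgeR's quasi-likelihood test on all 12 libraries, with Benjamini-Hochberg adjustment over 11984 genes and a threshold of 0.05. This test did not pair libraries by replicate number. In KO cells 7 of the 10 receptors passed, 4 higher and 3 lower, where 61.2% of all genes passed (30.3% higher and 30.9% lower). In WT cells 8 of the 10 passed, 4 higher and 4 lower, where 57.4% of all genes passed (27.6% higher and 29.8% lower). LPS-treated and untreated libraries did not overlap for 8 receptors in KO cells (74.1% of all genes) and 7 in WT cells (57.8% of all genes). With 10 receptors, these counts were not far from that background. The summed level of 8 monocyte markers also differed with LPS, at 330.0 to 339 CPM in LPS-treated KO and 197 to 275 CPM in LPS-treated WT libraries, against 100.1 to 133 CPM in untreated KO and 56.1 to 102 CPM in untreated WT libraries. That sum was carried by Vcan, at 229.7 to 243 CPM in LPS-treated KO and 150.4 to 189 CPM in LPS-treated WT libraries, against 2.14 to 2.36 CPM in untreated KO and 0.958 to 1.93 CPM in untreated WT libraries. Over the monocyte list 4 markers rose and 2 fell in each genotype. Osteoclast markers summed to 135 to 154 CPM in LPS-treated KO and 79.2 to 93.6 CPM in LPS-treated WT libraries, against 42.8 to 56.5 CPM in untreated KO and 36.2 to 56.7 CPM in untreated WT libraries. The sums for platelet and stromal markers were also higher, and that for mast cell markers lower, in every LPS-treated library than in any untreated library of the genotype. Single genes made up most of these sums with LPS: Acp5 for osteoclasts, Pf4 for platelets, Pdgfrb for stromal cells and Kit for mast cells. Of the platelet markers 1 rose and 1 fell past the threshold in each genotype. The neutrophil sum was higher in this way in KO cells and overlapped in WT cells. The part of these markers in the receptor values was not tested. In such bulk samples fewer cells of a type and less RNA per cell cannot be told apart.

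Adora2a encodes the high-affinity adenosine receptor that couples to cyclic AMP. In LPS-treated cells it had 64.2, 60.6 and 67.7 CPM in KO and 44.5, 51.9 and 46.05 CPM in WT libraries. In untreated cells it had 1, 2 and 2 reads in KO and 0, 1 and 1 reads in WT libraries, and the count of 0 allows up to 3 reads, or 0.334 CPM on that library's own total. With reads summed over libraries, the LPS-treated level was 570 times the untreated level in KO cells (95% interval 244 to 1758) and 914 times in WT cells (253 to 7558), intervals that cover counting error only. Both changes passed the test (adjusted p = 4.99e-13 in KO and 1.12e-12 in WT cells).

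Adora2b encodes the low-affinity adenosine receptor, and its reads were few. It had 2.92, 2.12 and 1.88 CPM in LPS-treated KO against 2.24, 2.47 and 2.40 CPM in untreated KO libraries, which overlapped (log2 fold change -0.03 ± 0.28 SE, adjusted p = 0.929). In WT cells it had 0.899, 1.72 and 1.48 CPM with LPS, from 6 to 17 reads per library, against 1.55, 3.30 and 2.87 CPM without. The WT change passed the test (-0.90 ± 0.32, adjusted p = 0.0282) although the groups overlapped, and it no longer passed without LPS-treated WT replicate 1 (-0.71) or 3 (-0.93), without untreated WT replicate 2 (-0.67) or 3 (-0.81), or in the female libraries alone (-0.88).

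Cnr2 had 0.796, 0.923 and 0.657 CPM in LPS-treated KO libraries, from 7 to 10 reads each, against 40.1, 46.3 and 47.7 CPM in untreated KO libraries. In WT cells it had 0.899, 0.808 and 0.569 CPM with LPS, from 5 to 8 reads each, against 33.0, 45.1 and 39.1 CPM without. With reads summed over libraries, the untreated level was 56.2 times the LPS-treated level in KO cells (95% interval 38.2 to 86.2) and 53.0 times in WT cells (33.8 to 88.3), again with intervals for counting error only. The LPS-treated and untreated libraries were far apart in both genotypes (log2 fold change -5.80 ± 0.19 in KO and -5.69 ± 0.20 in WT cells, adjusted p = 9.19e-12 and 2.34e-11).

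P2ry2 encodes the receptor for ATP and UTP that couples to calcium release and is known for guiding phagocytes to dying cells. It had 48.5, 55.8 and 47.6 CPM in LPS-treated KO and 41.5, 40.5 and 43.1 CPM in LPS-treated WT libraries. Untreated libraries had 14.8, 14.1 and 17.01 CPM in KO and 17.7, 23.4 and 20.7 CPM in WT libraries. It rose 3.31-fold in KO (log2 1.73 ± 0.12, adjusted p = 1.57e-08) and 2.02-fold in WT cells (1.01 ± 0.12, adjusted p = 4.73e-06). LPS-treated and untreated libraries were separated in both genotypes.

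P2ry13, a receptor for ADP that lowers cyclic AMP, had 35.0, 52.0 and 37.5 CPM in LPS-treated KO and 41.8, 27.2 and 21.8 CPM in LPS-treated WT libraries. Without LPS the values were 11.2, 13.6 and 11.8 CPM in KO and 13.2, 9.48 and 7.00 CPM in WT libraries. Its neighbour P2ry14, the receptor for UDP-glucose and related sugars, had 76.4, 89.5 and 88.8 CPM in LPS-treated KO and 109, 70.3 and 66.7 CPM in LPS-treated WT libraries. Untreated libraries had 25.5, 30.8 and 26.7 CPM in KO and 36.1, 18.4 and 16.3 CPM in WT libraries. For both genes the WT libraries spread more widely than the KO libraries, with WT replicate 1 highest in each condition. P2ry13 rose 3.40-fold in KO (log2 1.77 ± 0.25, adjusted p = 2.84e-05) and 3.06-fold in WT cells (1.61 ± 0.26, adjusted p = 1.08e-04). P2ry14 rose 3.07-fold in KO (1.62 ± 0.25, adjusted p = 6.64e-05) and 3.50-fold in WT cells (1.81 ± 0.26, adjusted p = 3.48e-05).

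The third gene of that cluster behaved differently: P2ry12, an ADP receptor best known from platelets and microglia, had 7.25, 7.84 and 8.64 CPM in LPS-treated KO and 8.39, 6.06 and 5.69 CPM in LPS-treated WT libraries. Without LPS the values were 6.96, 9.27 and 5.71 CPM in KO and 7.93, 5.90 and 5.31 CPM in WT libraries. The groups overlapped, and the log2 fold change was 0.12 ± 0.21 in KO (adjusted p = 0.641) and 0.07 ± 0.22 in WT cells (adjusted p = 0.812). When libraries were scaled by their totals alone P2ry12 passed as lower, with -0.47 in KO (adjusted p = 0.0361) and -0.48 in WT cells (adjusted p = 0.0462). Med12l, whose span holds all 3 genes, averaged 2.08 ± 0.254 CPM in LPS-treated KO and 1.43 ± 0.473 CPM in LPS-treated WT libraries, against 3.88 ± 0.73 CPM in untreated KO and 3.45 ± 0.961 CPM in untreated WT libraries.

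P2ry6 had 62.2, 79.5 and 66.4 CPM in LPS-treated KO and 92.3, 70.9 and 77.8 CPM in LPS-treated WT libraries. Untreated libraries had 119.2, 130.1 and 119.5 CPM in KO and 137, 115 and 115 CPM in WT libraries. It fell to 0.564 of the untreated level in KO (log2 -0.83 ± 0.12, adjusted p = 2.88e-05) and to 0.656 in WT cells (-0.61 ± 0.12, adjusted p = 4.90e-04). Its genomic neighbour P2ry2 moved the other way.

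P2rx7 had 54.0, 52.3 and 50.2 CPM in LPS-treated KO and 60.7, 48.6 and 53.6 CPM in LPS-treated WT libraries. Without LPS the values were 97.5, 108 and 90.3 CPM in KO and 106, 82.5 and 89.3 CPM in WT libraries. It fell to 0.529 of the untreated level in KO (log2 -0.92 ± 0.11, adjusted p = 5.88e-06) and to 0.585 in WT cells (-0.77 ± 0.11, adjusted p = 3.87e-05). P2rx7 has 5 transcripts in the tables, and the least counted, at 7.02% of the reads of the most counted, gave -0.59 in WT cells with adjusted p = 0.0804. Its neighbour P2rx4 had 269, 299.8 and 262 CPM in LPS-treated KO and 311, 237 and 262 CPM in LPS-treated WT libraries. Untreated libraries had 219, 244 and 224 CPM in KO and 271, 188 and 204 CPM in WT libraries. The log2 fold change of P2rx4 was 0.27 ± 0.13 in KO (adjusted p = 0.0862) and 0.29 ± 0.13 in WT cells (adjusted p = 0.0785).

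Libraries with the same number deviated together across the conditions, and with the replicate number as a block P2rx4 also passed as higher (0.27, adjusted p = 9.15e-05 in KO and 0.30, adjusted p = 4.50e-05 in WT cells), which made 8 of 10 receptors in KO (72.6% of all genes) and 9 of 10 in WT cells (68.1%). The direction of P2rx4 and P2ry12 depended on the scaling: with library totals alone the median log2 fold change of all genes was -0.62 in KO and -0.59 in WT cells, and P2rx4 fell in KO (-0.32, adjusted p = 0.0159) and WT cells (-0.26, adjusted p = 0.0441). On the same scale P2ry2 still rose, by 1.13 in KO and 0.46 in WT cells (adjusted p = 2.53e-06 and 0.00485), and the other receptors that passed kept their direction and their call. Without WT replicate 1 in both conditions P2rx4 also passed, with 0.26 in KO (adjusted p = 0.00186) and 0.37 in WT cells (adjusted p = 7.33e-04). The WT response of P2ry12 was then 0.09 (adjusted p = 0.742). The 8 receptors that passed in WT cells also passed, with 9.24 for Adora2a, 2.00 for P2ry14, 1.59 for P2ry13, 0.94 for P2ry2, -0.61 for P2ry6, -0.73 for P2rx7, -0.92 for Adora2b and -5.88 for Cnr2. In that setting 8641 of 12129 genes passed in KO and 7420 in WT cells.

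**Figure D2:**
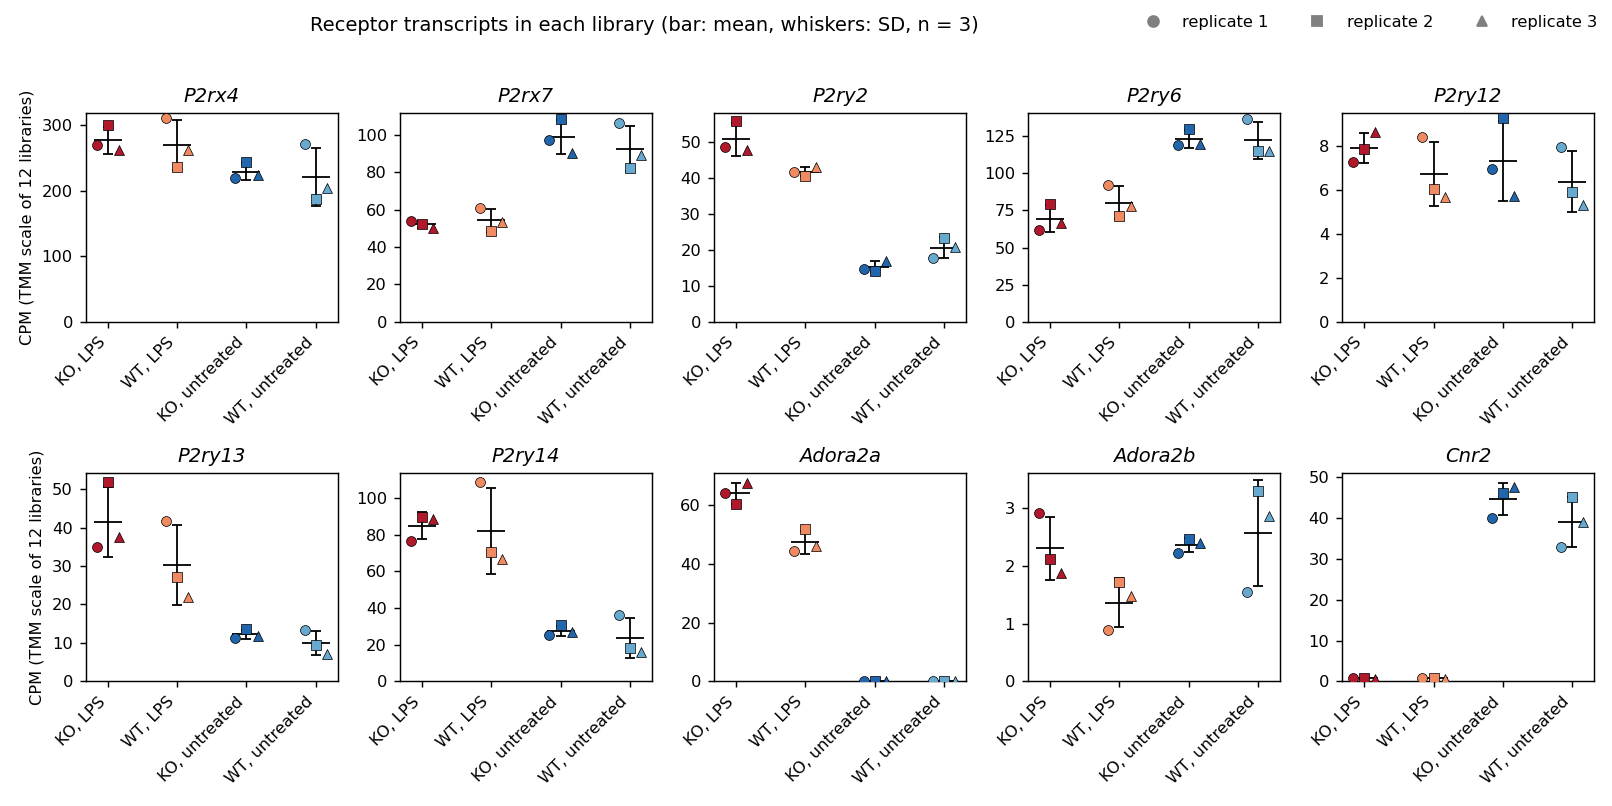
Each panel plots CPM of a receptor on a TMM scale common to 12 libraries, from 0, for LPS-treated KO, LPS-treated WT, untreated KO and untreated WT libraries; symbols give replicates 1 to 3, bars the mean and whiskers the SD of 3 libraries. Adora2a is near 0 without LPS and Cnr2 near 0 with it, and WT replicate 1 (circles) is the highest WT library for P2ry13 and P2ry14 in both conditions.

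**Figure D3:**
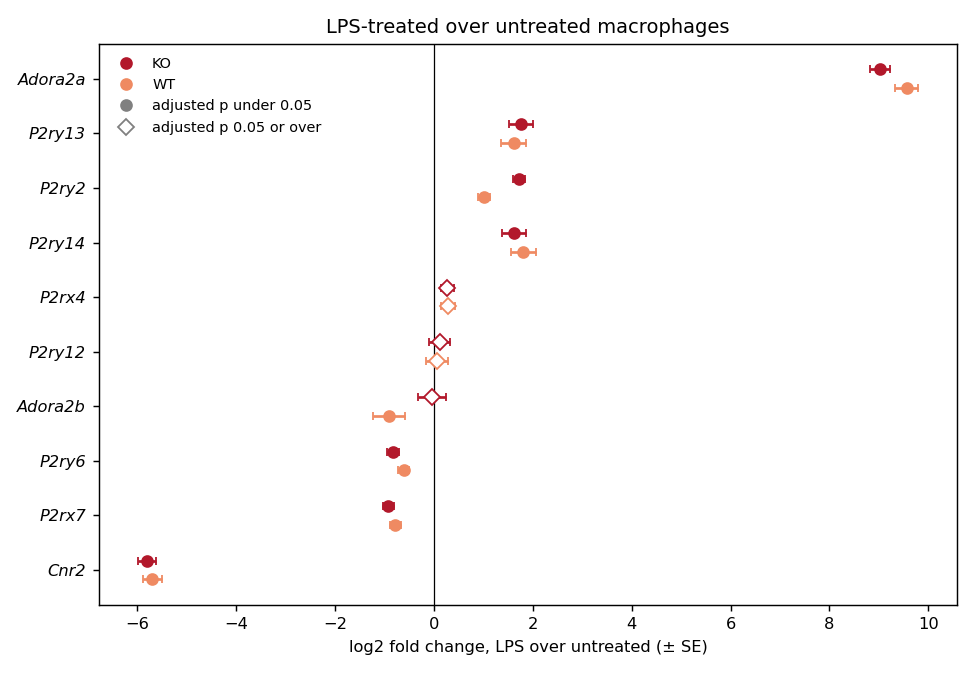
Points give the log2 fold change of LPS-treated over untreated macrophages with its SE, in KO above WT, for the 10 receptors ordered by the KO value; filled circles have an adjusted p under 0.05 and open diamonds do not. Values run from 9.02 and 9.56 for Adora2a in KO and WT cells to -5.80 and -5.69 for Cnr2, and P2rx4 and P2ry12 are open in both genotypes. The test shown did not pair libraries by replicate number, and with that number as a block P2rx4 passed in both genotypes.

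In untreated cells none of these receptors differed between KO and WT macrophages past the threshold. In the 6 untreated libraries 11622 genes passed the filter on low counts. Of the receptors 9 were tested by edgeR and 0 passed, where 0 of all genes (0.0%) passed. Before adjustment 841 genes (7.24%) had a p under 0.05, with 0 calls by limma-voom and 39 by DESeq2. Adora2a did not pass the filter, with 5 reads in KO and 2 in WT libraries, a ratio of 2.15 (95% interval 0.351 to 22.5, counting error only). P2ry2 was the receptor whose genotypes did not overlap (1 of 9, against 15.3% of all genes): 14.8, 14.1 and 17.01 CPM in untreated KO against 17.7, 23.4 and 20.7 CPM in untreated WT libraries, a log2 difference of -0.41 ± 0.14 with an adjusted p of 0.535 by edgeR over all genes (unadjusted p = 0.0172). The other 8 differences ran from -0.13 for Adora2b to 0.33 for P2ry13.

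The untreated comparison depended on WT replicate 1. Without it 4 of 9 receptors passed, where 6.34% of all genes did: P2ry14 was higher in KO cells (0.69 ± 0.11, adjusted p = 9.42e-04), as were P2ry13 (0.58 ± 0.15, adjusted p = 0.0283) and P2rx4 (0.25 ± 0.07, adjusted p = 0.0346), and P2ry2 was lower (-0.50 ± 0.11, adjusted p = 0.0144). With all libraries the values of P2ry14, P2ry13 and P2rx4 were 0.26 (adjusted p = 0.923), 0.33 (0.855) and 0.07 (0.962). In untreated cells the summed platelet markers, nearly all Pf4, stood at 137 to 162 CPM in KO against 91.4 to 103 CPM in WT libraries, and the monocyte markers at 100.1 to 133 CPM in KO against 56.1 to 102 CPM in WT libraries; their part was not tested.

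In LPS-treated cells Adora2a, P2ry2 and Adora2b were higher in every KO library than in any WT library, without passing the test. Over the 6 LPS-treated libraries 127 of 11264 genes passed (1.13%), 113 higher and 14 lower in KO cells, and 0 of 9 receptors tested were among them. Before adjustment 1553 genes (13.8%) had a p under 0.05, and DESeq2 called 241 genes and limma-voom 121. The 3 receptors whose genotypes did not overlap compare with 20.3% of all genes. Adora2a, at 60.6 to 67.7 CPM in KO against 44.5 to 51.9 CPM in WT libraries, differed by 0.42 ± 0.09 on the log2 scale (1.34-fold, adjusted p = 0.0581), and by 0.38 (adjusted p = 0.0203) without WT replicate 1. Over 16 alternative settings its adjusted p ran from 0.0203 to 0.289 and passed in 4 of them.

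P2ry2 differed by 0.27 ± 0.09 (adjusted p = 0.227), at 47.6 to 55.8 CPM in KO against 40.5 to 43.1 CPM in WT libraries. Adora2b differed by 0.70 ± 0.32 (adjusted p = 0.360), from 33, 23 and 20 reads in KO and 6, 17 and 13 reads in WT libraries. P2ry13 differed by 0.46 ± 0.22 (adjusted p = 0.399) and by 0.75 ± 0.16 (adjusted p = 0.0232) without WT replicate 1, which left 2 of 9 receptors past the threshold, where 4.76% of all genes passed. Cnr2 did not pass the filter, with 26 reads in KO and 19 in WT libraries, a ratio of 1.06 (95% interval 0.564 to 2.02, counting error only). The other 5 receptors differed by -0.22 to 0.25, and their libraries overlapped.

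Several marker lists differed between the genotypes in LPS-treated cells. The summed level of 8 monocyte markers was 330.0 to 339 CPM in KO against 197 to 275 CPM in WT libraries, that of 6 osteoclast markers 135 to 154 CPM in KO against 79.2 to 93.6 CPM in WT libraries, and that of 6 megakaryocyte and platelet markers 179 to 256 CPM in KO against 135 to 143 CPM in WT libraries, nearly all of it Pf4. Vcan made up most of the monocyte sum and Acp5 most of the osteoclast sum. Of these lists 7, 3 and 2 genes were above 1 CPM in LPS-treated KO cells. Their part in the receptor values was not tested. The sum of 11 dendritic cell markers overlapped, at 116 to 170 CPM in KO against 117 to 144 CPM in WT libraries, and was mostly Itgax. Of the 6 dendritic cell markers tested 1 passed, Kmo, at 7.07 to 10.3 CPM in KO against 3.44 to 4.49 CPM in WT libraries. Batf3 (4.70 to 6.64 CPM in KO against 2.39 to 3.33 CPM in WT) and Xcr1 (2.58 to 2.72 CPM in KO against 0.749 to 1.71 CPM in WT) also did not overlap. Neither did Ccr7 (0.973 to 1.41 CPM in KO against 0.505 to 0.910 CPM in WT). The other dendritic cell markers overlapped between the genotypes. Over all genes 20.3% did not overlap. Sums for neutrophils, B cells, T and NK cells, mast cells and stromal cells overlapped between the genotypes, with Ncr1 and Fcer1a at 0 in every library and B cell markers at no more than 5.30 CPM in sum.

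**Figure D4:**
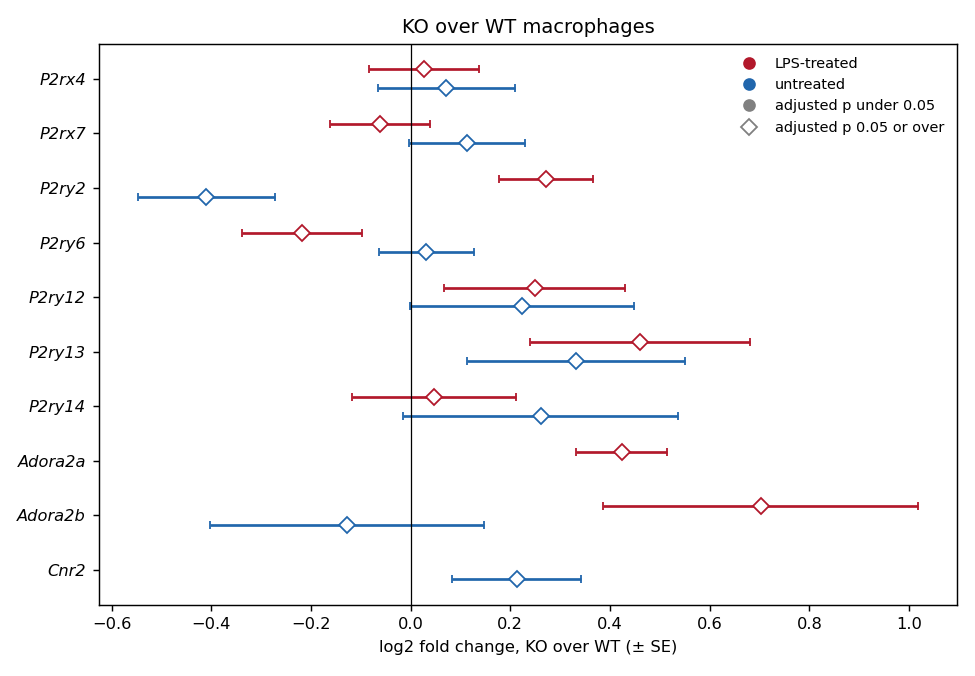
Points give the log2 difference of KO over WT macrophages with its SE, LPS-treated above untreated, for each receptor that passed the filter on low counts; all symbols are open because no adjusted p was under 0.05. P2ry2 lies at 0.27 with LPS and at -0.41 without, on opposite sides of 0.

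Of the receptors, P2ry2 had the smallest p for a difference between the genotypes in the LPS response. Its rise was steeper in KO cells, which were lower than WT cells without LPS and higher with it. The difference between the log2 responses was 0.71 ± 0.16 (unadjusted p = 7.37e-04 by edgeR, rank 4 of 11984 genes). After adjustment over all genes this did not pass (adjusted p = 1.0), and 0 genes passed (0.0%), with 288 at an unadjusted p under 0.05 (2.4%) and 0 calls by DESeq2 and by limma-voom. Genotypes that did not overlap in either condition, in opposite directions, were found for 27 genes (0.225%), P2ry2 among them. The sign was the same in all 21 alternative settings, in which the difference ran from 0.46 in the female libraries to 0.77 without untreated WT replicate 1. Without WT replicate 1 in both conditions, an alternative chosen after the values were seen, the difference was 0.77 ± 0.15 with an adjusted p of 0.0363, and 24 genes passed.

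For the other receptors the difference between the responses had an unadjusted p of at least 0.0642 by edgeR. Adora2b was next by p, with 0.86 ± 0.43 and rank 392. P2ry6 followed with -0.22 ± 0.16, and P2rx4 was closest to 0 with -0.01 ± 0.19. Adora2a and Cnr2, with few reads in untreated and LPS-treated libraries in turn, had -0.54 ± 0.63 and -0.11 ± 0.37. The KO and WT responses share no library, and the response and genotype values of a receptor share theirs.

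**Figure D5:**
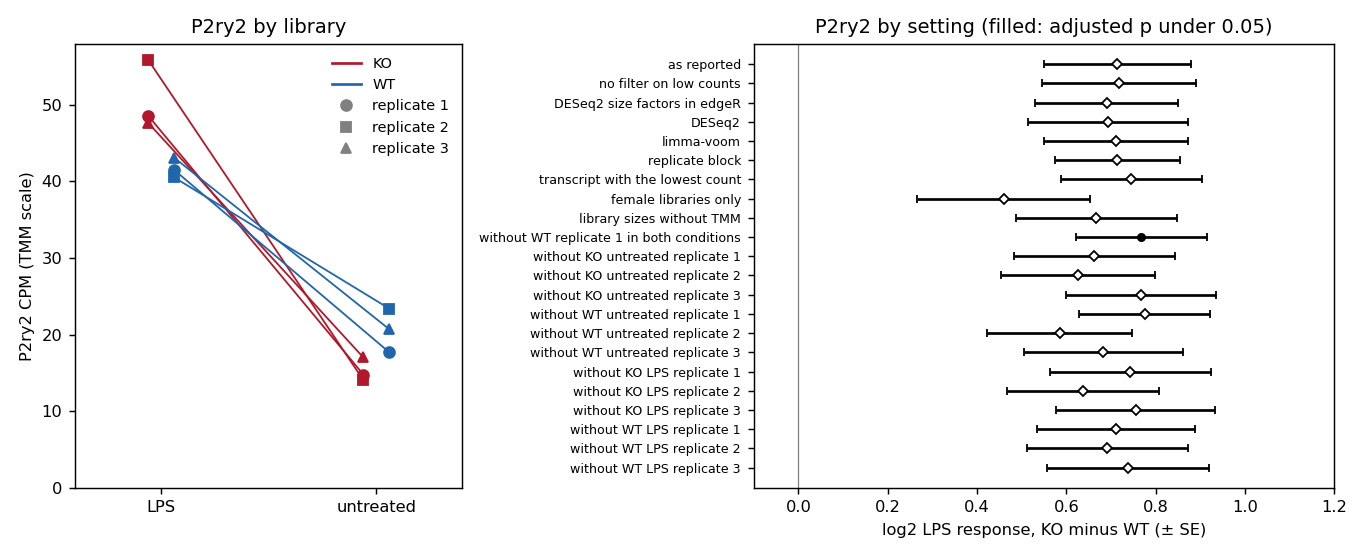
Left, P2ry2 CPM in LPS-treated and untreated libraries, with lines joining the libraries of a genotype that carry the same replicate number; KO lies above WT with LPS and below it without. Right, the KO minus WT difference in the log2 LPS response with its SE as reported (0.71) and under 21 alternative settings, all above 0; the filled point, without WT replicate 1 in both conditions, has an adjusted p under 0.05.

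Genes whose log2 CPM tracked each receptor most closely over the 12 libraries are given as a description, since the points share the LPS contrast. Predicted genes and pseudogenes were left out of this ranking. Adora2a was closest to Nod1, Icam1 and Il15 (Pearson r of 0.999 each), an intracellular sensor of bacterial peptides, an adhesion molecule and a cytokine. Cnr2 was closest to B4galt1, Cnnm3 and Irf2bp2 (r of 0.997 each), with Irf2bp2 at 2.78 CPM in LPS-treated KO and 3.04 CPM in LPS-treated WT cells. Untreated, Irf2bp2 averaged 129 CPM in KO and 135 CPM in WT cells. P2ry2 was closest to Pla2g4a (0.990), the phospholipase that releases arachidonic acid, which averaged 81.1 CPM in LPS-treated KO and 63.2 CPM in LPS-treated WT cells. For Pla2g4a the untreated means were 22.4 CPM in KO and 27.7 CPM in WT cells. P2ry14 was closest to Sat1 (0.996) and Fcgr2b (0.995), P2ry13 to Gbp8 (0.987), P2rx7 to Rbl2 (0.993), P2ry6 to Rnf168 (0.990) and P2rx4 to the lysosomal protease gene Ctss (0.976). Among the genes ranked, P2ry12 and Adora2b had none as close, with Mynn at 0.883 and Mrpl44 at 0.934.

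Genes that supply, remove and act on the ligands were read from lists of pathway genes, each to be set against the 61.2% of all genes that passed in the LPS response of KO cells and the 57.4% in that of WT cells. Of 12 tested genes for nucleotide release, 8 rose and 3 fell in KO cells and 7 rose and 4 fell in WT cells (5 and 5, and 6 and 5, with library totals alone), and the median log2 fold change was 0.59 and 0.63, against -0.02 and -0.05 over all genes. Calhm6, of the family of ATP-permeable channels, averaged 388 ± 48.7 CPM in LPS-treated KO and 308 ± 11.2 CPM in LPS-treated WT cells. Without LPS it averaged 2.70 ± 0.275 CPM in KO and 1.502 ± 0.558 CPM in WT cells. Gja1, a connexin gene, averaged 83.4 ± 4.72 CPM in LPS-treated KO and 47.7 ± 7.95 CPM in LPS-treated WT cells. In untreated cells the mean was 3.56 ± 1.08 CPM in KO and 2.17 ± 0.375 CPM in WT cells. It was the gene of this list that differed between the genotypes after LPS (log2 0.80 ± 0.12, adjusted p = 0.0105).

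The list for nucleotide breakdown was not limited to enzymes outside the cell. Of its 9 tested genes, 3 rose and 3 fell in each genotype, with a median of -0.17 in KO and -0.21 in WT cells. With library totals alone 3 rose and 5 fell in each genotype, with a median of -0.77 and -0.75. Entpd1, which encodes the ATP- and ADP-degrading enzyme CD39, was the most abundant, at 215 ± 18.6 CPM in LPS-treated KO and 218 ± 15.4 CPM in LPS-treated WT cells. The untreated means were 259 ± 23.0 CPM in KO and 258 ± 48.5 CPM in WT cells, and the LPS response of Entpd1 did not pass in KO (adjusted p = 0.0716) or WT cells (adjusted p = 0.108). Those that rose were Enpp4, Cd38 and Bst1, where Cd38 and Bst1 encode NAD-consuming ectoenzymes. Bst1 also differed between the genotypes after LPS, at 41.9 ± 1.41 CPM in KO against 28.0 ± 1.97 CPM in WT cells (log2 0.58 ± 0.10, adjusted p = 0.0209).

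Of 13 tested genes for adenosine handling, 6 rose and 4 fell in KO and 4 rose and 4 fell in WT cells, with a median of 0.09 and 0.03. With library totals alone 4 rose and 6 fell in KO and 4 rose and 8 fell in WT cells. Pnp, which encodes purine nucleoside phosphorylase, averaged 694 ± 33.2 CPM in LPS-treated KO and 557 ± 95.8 CPM in LPS-treated WT cells. Without LPS it averaged 71.6 ± 7.78 CPM in KO and 57.7 ± 9.59 CPM in WT cells. Ampd3, an AMP deaminase, rose 4.52-fold in KO and 4.27-fold in WT cells, and Slc28a2, a nucleoside transporter, rose 5.49-fold and 4.91-fold.

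Of the genes listed for endocannabinoid synthesis and breakdown, not all of them enzymes, 16 were tested. Of these 5 rose and 7 fell in KO and 4 rose and 7 fell in WT cells, with a median of -0.12 and -0.05. With library totals alone 3 rose and 11 fell in each genotype, with a median of -0.71 and -0.59. Dagla and Napepld, which make the endocannabinoid lipids, fell with their receptor Cnr2: Dagla to 1.43 ± 0.452 CPM in LPS-treated KO and 1.97 ± 0.266 CPM in LPS-treated WT cells. In untreated cells the mean was 15.8 ± 1.22 CPM in KO and 17.6 ± 1.72 CPM in WT cells. Napepld averaged 1.98 ± 0.138 CPM in LPS-treated KO and 2.79 ± 0.658 CPM in LPS-treated WT cells. The untreated means were 14.1 ± 1.04 CPM in KO and 15.8 ± 0.718 CPM in WT cells. Ptgs2, which encodes the prostaglandin-forming cyclooxygenase that also oxidises these lipids, averaged 1365 ± 256 CPM in LPS-treated KO and 971 ± 81.1 CPM in LPS-treated WT cells. Without LPS it averaged 1.60 ± 0.316 CPM in KO and 1.57 ± 0.33 CPM in WT cells.

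Among the other P2X and P2Y receptors and their relatives, 5 of 13 were tested, 3 fell and 0 rose in each genotype. They were P2ry1, an ADP receptor (log2 -1.65 ± 0.13 in KO and -1.89 ± 0.14 in WT cells), Gpr34 (-2.04 and -1.81) and Gpr35 (-2.42 and -3.19). Of the other adenosine and cannabinoid-related receptors 3 of 7 were tested and 1 passed: Gpr18 rose to 4.27 ± 0.393 CPM in LPS-treated KO and 5.07 ± 1.47 CPM in LPS-treated WT cells. In untreated cells the mean was 0.158 ± 0.0354 CPM in KO and 0.185 ± 0.0409 CPM in WT cells.

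Downstream of the receptors, 40 genes of G protein, cyclic AMP and calcium signalling were tested, of which 15 rose and 16 fell in KO and 16 rose and 17 fell in WT cells (7 and 25, and 6 and 24, with library totals alone), with a median of 0.04 and -0.02. Pde4b, a cyclic AMP phosphodiesterase, averaged 260.1 ± 3.45 CPM in LPS-treated KO and 227 ± 21.7 CPM in LPS-treated WT cells. The untreated means were 10.6 ± 2.70 CPM in KO and 11.6 ± 0.92 CPM in WT cells. Adcy9, an adenylyl cyclase, fell by 2.45 in KO and 1.98 in WT cells on the log2 scale, and Arrb1, a beta-arrestin gene, by 1.72 and 1.53. Pde8a was lower in KO than in WT cells after LPS (log2 -0.51 ± 0.10, adjusted p = 0.0359, and 0.0523 with library totals alone), at 25.4 ± 1.01 CPM in KO against 35.9 ± 1.19 CPM in WT cells.

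All 11 genes of the P2rx7 pathway passed in both genotypes, where 61.2% of all genes passed in KO and 57.4% in WT cells, with 8 higher and 3 lower (6 and 4 in KO and 6 and 3 in WT cells with library totals alone), with a median of 1.43 in KO and 1.34 in WT cells. Nlrp3, the inflammasome sensor, rose 7.62-fold in KO and 7.56-fold in WT cells, Casp1 4.18-fold and 3.77-fold, and Casp4 9.13-fold and 8.35-fold. Il1b, the inflammasome's main cytokine substrate, averaged 1208 ± 290.6 CPM in LPS-treated KO and 767 ± 37.4 CPM in LPS-treated WT cells (log2 difference 0.65 ± 0.15, adjusted p = 0.0766), against 2.74 ± 0.178 CPM in untreated KO and 1.44 ± 0.30 CPM in untreated WT cells. The genes that fell, named after their values were seen, were the potassium channels Kcnk6 (-1.10 in KO and -0.93 in WT cells) and Kcnk13 (-1.41 in each) and Txnip, which binds thioredoxin (-0.70 and -0.55). Between the genotypes 0 of the 11 passed in either condition, where 1.13% of all genes passed after LPS. Each named gene of these lists that passed in the LPS response also passed, in the same direction, with library totals alone.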

How the data were processed

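Polyadenylated RNA (700 ng, mRNA library kit) was sequenced as single-end reads of 50 bases, per the labels' protocols. Reads were aligned to mm10 with STAR 2.5.2b and handled with SAMtools 1.3.1, per the submitters' processing notes; neither the counting tool nor its strand setting was given in the sources used here. The authors deposited whole-number read counts per RefSeq transcript, not normalized, and RPKM values, in separate tables for LPS-treated and untreated libraries. RPKM was used for the levels and shares of genes within a library, and in an alternative test of KO against WT. It is not on the CPM scale common to the 12 libraries: mean P2rx4 was lower with LPS in RPKM and higher in CPM.

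From the counts, the transcript with the highest total count stood for each gene. Transcripts that no annotation named (117, 0.259% to 0.738% of a library's counts) stayed out. Libraries of 8642581 to 13542953 counts were tested with edgeR 4.0.16 in R 4.3.3 (filterByExpr, TMM, robust quasi-likelihood F test, Benjamini-Hochberg adjusted p under 0.05): KO against WT on the 6 libraries of a condition, and LPS responses and their difference on all 12. SE is the log2 fold change over the square root of F. CPM uses TMM scaling over the 12 libraries, so a level depends on that scaling. Intervals are exact 95% intervals for summed reads, and a count of 0 allows up to 3 reads. The scripts were tested on simulated data. The alternatives were DESeq2 1.42.0, limma 3.58.1 (voom and RPKM with a pseudocount of 0.5), other scalings, no filter, another transcript, a replicate block, female libraries only and each library left out; library totals as the scale and WT replicate 1 left out of both conditions were added after the data were seen.

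Replicate numbers came from the labels. Deviations of same-numbered LPS-treated and untreated libraries correlated at 0.25, 0.45 and 0.20 in KO and 0.57, 0.56 and 0.30 in WT cells. Differently numbered libraries correlated at -0.32 to 0.15 in KO and -0.50 to 0.14 in WT cells, so numbers were taken to pair the conditions. Replicate 2 was male in every group, and the part of sex in these correlations was not tested. The main test of the LPS responses did not use this pairing, which entered only through the replicate block. The receptors, pathway lists and marker lists were chosen with earlier results of these data known. From each list, the genes past the threshold with the smallest p were selected in each comparison, up to 4, or else its most abundant tested gene. For each receptor, the 3 genes with the highest Pearson correlation were selected, with predicted genes and pseudogenes left out. The text names only some of the genes selected in these ways. Sequences are RefSeq's (GRCm38.p6).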

Additional observations from a re-analysis of the deposited data

Results flagged for a closer look

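P2ry2 is listed because its genotypes did not overlap in either condition, in opposite directions. All 3 LPS-treated KO libraries lay above all 3 LPS-treated WT libraries, and all 3 untreated KO libraries lay below all 3 untreated WT libraries. That was the rule for listing and adds no separate evidence. The log2 response of KO cells exceeded that of WT cells by 0.71 ± 0.16 (SE, unadjusted p = 7.37e-04 and adjusted p = 1.0 by edgeR over 11984 genes). Leaving out single libraries moved the difference between 0.58 and 0.77.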

How the results depend on the processing

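Depth limits Adora2a without LPS, Cnr2 with LPS and Adora2b in all groups, whose values rest on 0 to 47 reads per library. Leaving out single libraries gave 0 to 4 receptors and 0 to 749 genes past the threshold in untreated KO against WT. In LPS-treated KO against WT it gave 0 to 2 receptors and 17 to 545 genes. For the LPS response it gave 7 to 8 receptors and 6689 to 8078 genes in KO cells. In WT cells it gave 7 to 9 receptors and 6320 to 7418 genes. Of all genes in untreated KO against WT, 9 passed with no filter, 39 with DESeq2, 27 in the fit of 12 libraries and 1 with library totals as the scale. In LPS-treated KO against WT, 276 passed with no filter, 241 with DESeq2 and 17 in female libraries, and 1 receptor (Adora2a) passed with no filter and with DESeq2. Without WT replicate 1 in both conditions, 1 receptor (P2ry2) and 24 genes passed for the difference between the responses. The cause of these shifts was not tested.

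Values whose sign turned did not pass the threshold except with library totals as the scale, where P2rx4 had -0.32 in KO and -0.26 in WT cells and P2ry12 -0.47 in KO and -0.48 in WT cells after LPS. In female libraries, untreated KO over WT gave -0.080 for P2rx4, -0.035 for P2rx7, -0.054 for P2ry6, -0.028 for P2ry12 and 0.062 for Adora2b. LPS-treated KO over WT gave -0.12 for P2rx4 and -0.091 for P2ry14, the KO response of Adora2b was 0.053, and the difference between the responses of P2ry13 was -0.0035. Without WT replicate 1 in both conditions that difference was 0.068 for Cnr2. Leaving out single libraries, untreated KO over WT ran from -0.037 to 0.25 for P2rx4, -0.016 to 0.12 for P2ry6 and -0.36 to 0.084 for Adora2b, and LPS-treated KO over WT from -0.066 to 0.14 for P2rx4, -0.14 to 0.024 for P2rx7 and -0.077 to 0.30 for P2ry14. The KO response ran from -0.046 to 0.30 for P2ry12 and -0.24 to 0.094 for Adora2b, and the WT response from -0.10 to 0.25 for P2ry12. The difference between the responses ran from -0.22 to 0.10 for P2rx4, -0.15 to 0.22 for P2ry12, -0.12 to 0.44 for P2ry13 and -0.64 to 0.063 for P2ry14.

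Between the genotypes, libraries with the same number correlated at 0.05, 0.18 and 0.26 without LPS and -0.03, 0.19 and 0.12 with it, not over 0.1 in every pair, so the numbers were not taken to pair the genotypes; same-numbered libraries do share a sex. The replicate block left 47 genes in LPS-treated KO against WT and an adjusted p of 0.161 for Adora2a. It left the P2ry2 difference between the responses at 0.71 (adjusted p = 0.130), and among the receptors it changed no call other than that of P2rx4 in the LPS responses.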
